A study of Mus musculus with 4 samples.

Results

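Transferrin and 5 further genes that move and store iron were followed in spinal cord of mice at postnatal day 8, in 2 control and 2 Chd7 conditional knockout (cKO) libraries. The genes were taken by name: Trf, Tfrc, Slc11a2, Fth1, Ftl1 and Slc40a1. They are 6 of 21249 gene symbols, and all 6 passed the filter on low values. Control animals were Chd7f/+; Olig1-cre and cKO animals Chd7f/f; Olig1-cre, both on a mixed strain background, so the controls also carried the Cre and 1 floxed Chd7 allele. Olig1 drives the Cre in the oligodendrocyte lineage, whereas whole cord also holds neurons, astrocytes, microglia, vessels and meninges. Whether each library came from a separate animal is not given in the labels. The p-values rest on the spread between these libraries, most of it pooled over genes.

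Oligodendrocytes are known as the cells of the central nervous system that stain most strongly for iron, which enzymes of lipid and cholesterol synthesis need as a cofactor. Iron circulates bound to transferrin (Trf), enters cells with the transferrin receptor (Tfrc), leaves the endosome through the divalent metal transporter DMT1 (Slc11a2), is stored in ferritin shells built of heavy (Fth1) and light (Ftl1) chains, and leaves cells through ferroportin (Slc40a1). Iron regulatory proteins bind hairpins called iron-responsive elements in several of these mRNAs. In a 5' untranslated region such a hairpin is known to block translation when iron is low, and in the 3' untranslated region of Tfrc the hairpins are known to protect the mRNA from decay.

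The hairpins are shown because they set apart the members that carry one at the 5' end, where it is known to act on translation (Fth1, Ftl1 and Slc40a1), from those that carry it at the 3' end (Tfrc and a Slc11a2 transcript). They were read from GENCODE release vM21 transcripts (GRCm38), on the RNA strand only, 5' to 3', with T for U. The search motif was a C, then 5 bases of any kind, then CAGTGN, and the number of pairs formed by the 5 bases before and the 5 bases after the CAGTGN loop was counted, G with T included. Capitals mark the bulged C and the 6 bases of the loop.
Fth1, 5' untranslated region, 5 pairs: gtttcctgCttcaaCAGTGCttgaacggaa
Ftl1, 5' untranslated region, 5 pairs: gtgtcttgCttcaaCAGTGTttgaacggaa
Slc40a1, 5' untranslated region, 5 pairs: tccaacttCagctaCAGTGTtagctaagtt
Tfrc, 3' untranslated region, 5 pairs: ataattatCggaagCAGTGCcttccataat
Tfrc, 3' untranslated region, 5 pairs: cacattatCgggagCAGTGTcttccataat
Tfrc, 3' untranslated region, 5 pairs: gtctatatCggagaCAGTGAtctccatatg
Tfrc, 3' untranslated region, 5 pairs: gtaattatCgggaaCAGTGTttcccataat
Slc11a2, 3' untranslated region of the transcript of 4373 bases, 4 pairs: ggagccatCagagcCAGTGTgtttctatgg

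The ferritin hairpins share the 5 bases before the loop and the 5 bases after it, ttcaa and ttgaa. In Fth1 the bulged C is base 93 of a 5' untranslated region of 224 bases, in Ftl1 base 84 of 253 and in Slc40a1 base 96 of 319. The bulged C of the 4 Tfrc hairpins lies between bases 889 and 1380 of a 3' untranslated region of 2458 bases. In Slc11a2 the bulged C is base 38 of the 3' untranslated region of the longer transcript, and the transcript of 3023 bases, which ends in another 3' untranslated region, held the loop motif only with 2 and 3 pairs. Matches with 3 or fewer pairs in Fth1, Tfrc and Slc11a2 are not shown. No loop motif was found in either untranslated region of Trf. Of genes with an untranslated region of at least 30 bases, 11% held the loop motif in a 5' and 35.8% in a 3' untranslated region, and 0.14% and 0.611% held it with all 5 pairs. These regions differ in length, and a match is a description of the letters, not of binding.

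Values are FPKM, fragments per kilobase of transcript scaled to the mapped depth of the library, added up per symbol across all transcripts no shorter than 300 bases. FPKM is scaled for length, so levels can be set beside each other between genes. Relative depth, from the ratio of coverage to FPKM, ran from 1 in control 2 to 3.19 in cKO 2. Chd7 measured 3.52 FPKM in control 1, 3.12 in control 2, 2.52 in cKO 1 and 3.38 in cKO 2 (limma adjusted p = 0.657). The floxed part is not given in the labels, so this level checks the genotypes little. The 15 myelin markers summed to between 6853 and 19046 FPKM over the libraries.

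Of the 6 genes, Trf fell in cKO cord and no gene rose. A difference was called at a limma adjusted p below 0.05 over all 12913 genes tested. In all, 6.54% of genes tested were called lower and 4.13% higher. Both cKO libraries lay below both controls for 5 of the 6 genes, with Ftl1 as the exception. Such an order, without overlap and lower in cKO, was found for 29.3% of all genes tested. The median log2 fold change was -0.35 over the 6 genes and -0.00277 over all genes tested.

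**Figure D1:**
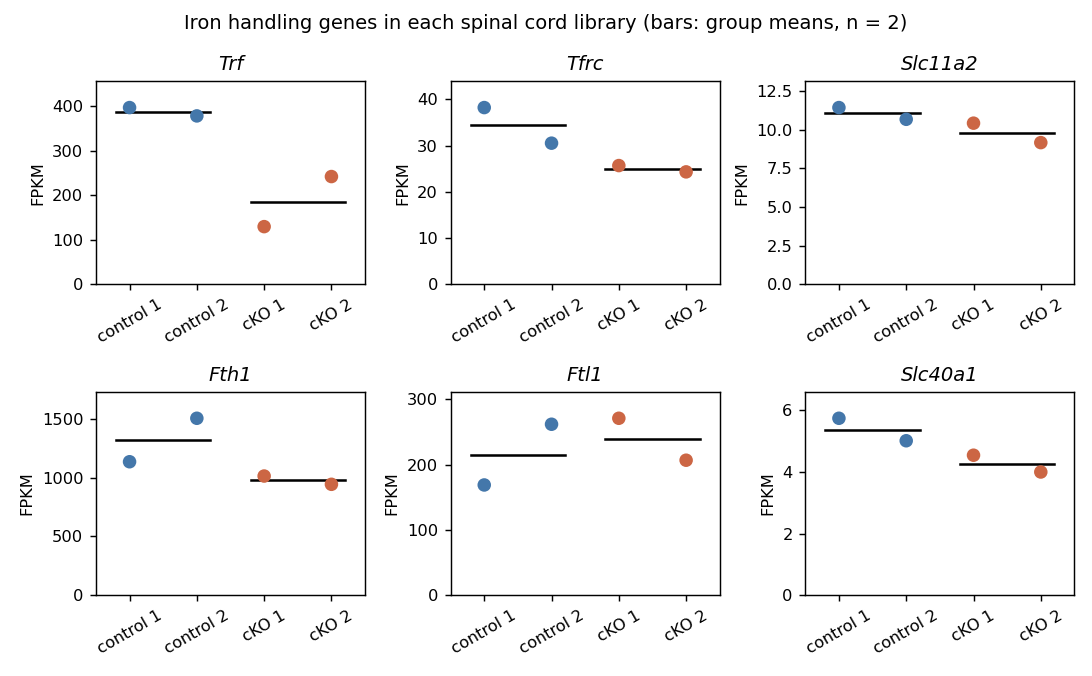
FPKM of the 6 iron genes (vertical axes, each starting at 0) in control 1, control 2, cKO 1 and cKO 2; points are libraries and bars are group means of 2 libraries. Trf is high in both controls (397 and 378 FPKM) and low in both cKO libraries (130 and 242 FPKM), while Ftl1 overlaps between the groups.

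The order of levels was the same in 3 of the 4 libraries: Fth1 highest, then Trf, Ftl1, Tfrc, Slc11a2 and Slc40a1. In cKO 1, Ftl1 lay above Trf. In the controls the Trf levels lay clear of those of Ftl1, whereas in the cKO libraries the ranges of these neighbours overlapped. All other neighbours in this order were separated in every library by more than the spread within a group. Among the 12913 genes tested, Fth1 ranked between 5th and 12th by FPKM, and Trf ranked 63rd and 97th in the controls, 456th in cKO 1 and 196th in cKO 2.

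Trf, the iron carrier of plasma and a product of oligodendrocytes in the central nervous system, measured 397 FPKM in control 1, 378 in control 2, 130 in cKO 1 and 242 in cKO 2. The controls differed by 1.05-fold, the cKO libraries by 1.87-fold, and the groups did not overlap. Means were 387 ± 13.2 FPKM in control and 186 ± 79.4 FPKM in cKO (SD over 2 libraries a group), so the cKO mean was 48.0% of the control mean. The log2 fold change was -1.12 ± 0.24 (SE), with a limma adjusted p of 0.00128 and a 95% interval from -1.61 to -0.64. Most of this error estimate is pooled over genes, whereas the cKO libraries differed by 0.89 in Trf itself on the log2 scale. Of all genes tested, 0.643% had a lower log2 fold change. The gene lies on chromosome 9, 103111206 to 103132616 (mm9), and is a single transcript of 2332 bases in the tables. Its coverage was between 207 and 589 reads per base in every library.

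The size of the Trf change depended on cKO 1. Without that library the log2 fold change was -0.68, and without cKO 2 it was -1.57. A fit without 1 library leaves a group of 1, whose spread no p-value can measure, so only fold changes are given for such fits. The call was lost with no filter on low values (limma adjusted p = 0.370). It was also lost when transcripts shorter than 300 bases were added to the sums (adjusted p = 0.155). Testing each transcript on its own lost it too (adjusted p = 0.270). The fold change stayed the same in these settings.

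Myelin markers moved with Trf. Of 15 genes on a list of myelin and mature oligodendrocyte markers, all but Mbp, 14 in number, were called lower and none higher, with log2 fold changes from -2.06 to -0.53 and a median of -1.13. Relative to the control mean, the median marker lay at -1.31 in cKO 1 and -0.88 in cKO 2 on the log2 scale, and Trf at -1.57 and -0.68. Trf amounted to 2.37% and 1.98% of the summed FPKM of these markers in the controls and to 1.89% and 2.26% in cKO 1 and cKO 2. Its ratio to Mog, which sits on the outermost face of myelin, was 1.68 and 1.52 in the controls and 1.52 and 2.07 in the cKO libraries. Both ratios overlapped between the groups (exact permutation p = 0.667 for each, two-sided, where 0.333 is the smallest that 2 against 2 libraries allow). With 2 libraries a group, this overlap does not show that the ratios are equal. In whole tissue, fewer cells of a type and less RNA per cell cannot be told apart. The 7 oligodendrocyte precursor markers summed to 244 and 260 FPKM in the controls and to 160 and 190 FPKM in the cKO libraries. They had a median log2 fold change of 0.07, with 2 called lower (28.6% against 10.7% of all genes tested). The 8 astrocyte markers summed to 1846 and 2054 FPKM in the controls and to 1497 and 1916 FPKM in the cKO libraries, which overlap. Of these, 1 was called higher (12.5%). The part of either list in the Trf level was not tested. Choroid plexus is another tissue known to make transferrin. On the list of 10 choroid plexus and ependymal markers, Kl did not exceed 0.841 FPKM, and Folr1, Clic6, Kcne2 and Otx2 stayed below 0.5 FPKM in every library. Ttr, the thyroid hormone carrier that choroid plexus makes, measured 1.23 FPKM in control 1, 0.471 in control 2, 2.10 in cKO 1 and 1.72 in cKO 2. It was called higher (log2 fold change 0.68, limma adjusted p = 0.00721). Of the 5 markers tested, 80% were called, against 10.7% of all genes tested. Ttr, Ccdc153 and Tmem212 were called higher and Rsph1 lower, and Foxj1 was not called. Levels were low, as Ccdc153 did not exceed 2.73 FPKM, Tmem212 3.26 FPKM and Rsph1 7.01 FPKM. The list summed to 16.4 and 16.1 FPKM in the controls and to 19.3 and 14.9 FPKM in cKO 1 and cKO 2, which overlap. The part of these cells in the Trf level was not tested.

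Neuron markers lay in the other direction. The 10 genes of that list summed to 1723 and 1717 FPKM in the controls and to 2437 and 2068 FPKM in cKO 1 and cKO 2, without overlap. All 10 had a log2 fold change above 0, with a median of 0.31, and 1, Slc32a1, was called higher (log2 fold change 0.58, limma adjusted p = 0.0349). Their part in the Trf level was not tested.

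The genes with the profile most like Trf over the 4 libraries were found by the distance between log2(FPKM + 1) values, each gene's mean taken away, among 6187 genes with a mean of at least 10 FPKM. The nearest was Cpox, coproporphyrinogen oxidase of heme synthesis, at a distance of 0.12. It was followed by Secisbp2l (0.14), Mal (0.16), a proteolipid of myelin, Gm98, which RefSeq lists as the myelin gene regulator Myrf (0.17), and Mtap7, a microtubule-associated protein (0.17). All 5 were lowest in cKO 1 and next lowest in cKO 2.

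**Figure D2:**
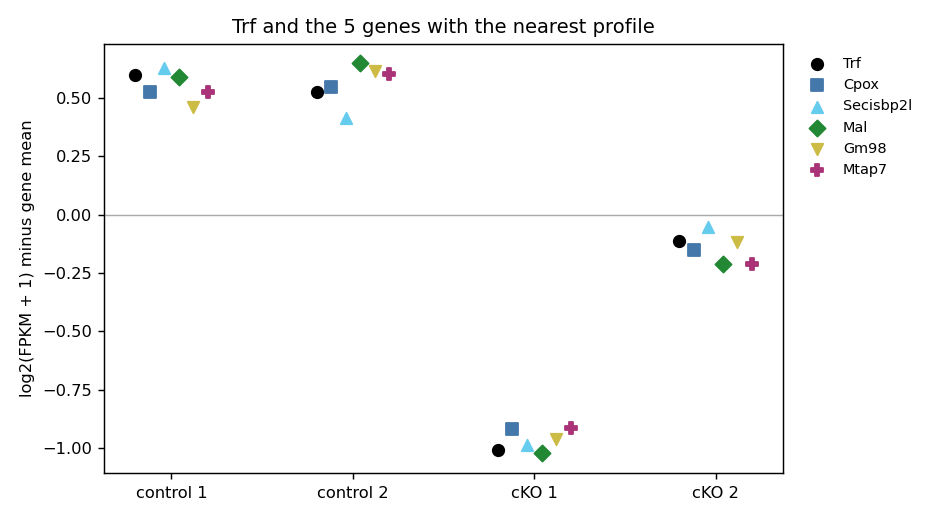
log2(FPKM + 1) minus the gene's own mean over the 4 libraries (vertical axis) in each library (horizontal axis), for Trf and the 5 genes nearest to it. Points of each library lie close together, since these genes were picked for this likeness, with cKO 1 lowest and cKO 2 between cKO 1 and the controls.

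Tfrc, the receptor that takes up iron-loaded transferrin, measured 38.3 FPKM in control 1, 30.6 in control 2, 25.7 in cKO 1 and 24.3 in cKO 2. The cKO libraries lay close together and below both controls. Means were 34.4 ± 5.44 and 25.0 ± 0.964 FPKM (SD over 2 libraries a group). The log2 fold change was -0.44 ± 0.16 (SE) and missed the threshold (limma adjusted p = 0.0793). Without control 2 it was -0.59, and without control 1 it was -0.28. Tfrc lies on chromosome 16, 32608982 to 32632880 (mm9), and its transcript of 4914 bases carries the 3' hairpins shown above. Brain endothelium and young red cells are known for high Tfrc. The 11 endothelial markers, none of them called, summed to 171 FPKM in control 1, 191 in control 2, 187 in cKO 1 and 163 in cKO 2, which overlap. The 11 red cell markers summed to 4.13, 120, 9.92 and 15.8 FPKM in controls 1 and 2 and cKO 1 and 2, with Gata1 at 0 in control 2 and cKO 2. Their part in the Tfrc level was not tested.

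Slc11a2, the transporter DMT1, measured 11.4 FPKM in control 1, 10.7 in control 2, 10.4 in cKO 1 and 9.16 in cKO 2. The gap between the groups was smaller than the spread within the cKO group. Its log2 fold change was -0.16 ± 0.15 (SE) and missed the threshold (limma adjusted p = 0.563), with a 95% interval from -0.47 to 0.15. The tables hold 2 transcripts of the gene, which spans bases 100218331 to 100253486 of chromosome 15 (mm9). The transcript of 4373 bases, which carries the hairpin, measured 7.57 FPKM in control 1, 7.31 in control 2, 7.75 in cKO 1 and 7.13 in cKO 2, and the groups overlapped (log2 fold change -0.00097 ± 0.12, limma adjusted p = 0.998 among transcripts).

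The Slc11a2 transcript of 3023 bases measured 3.84 FPKM in control 1, 3.35 in control 2, 2.66 in cKO 1 and 2.02 in cKO 2, below both controls (log2 fold change -0.46 ± 0.17, limma adjusted p = 0.326 among transcripts, of which 0.129% were called). Its share of the gene's FPKM was 33.7% and 31.4% in the controls and 25.5% and 22.1% in the cKO libraries. The mean share was 32.5 ± 1.61% in control and 23.8 ± 2.44% in cKO (SD over 2 libraries a group), with an exact permutation p of 0.333, the smallest possible. In a limma fit of the log2 ratio over all 1390 genes with 2 such transcripts, chosen after the data were seen, the change of -0.46 ± 0.29 did not pass (adjusted p = 0.697). In that fit 0% of genes were called. The log2 ratio of the less to the more abundant transcript was lower in cKO without overlap in 21.7% of genes. Reads in exons that both transcripts hold cannot be assigned to either directly, so the shares are estimates. On the opposite strand, GENCODE lists Gm5475 over the 5' end of Slc11a2 and Gm10252 over that of Ftl1. It also lists Gm20425 over most of Trf on its own strand. Whether the counting used strand is not given in the labels, so reads of the overlaps on opposite strands cannot be told apart. For Trf and Gm20425, strand could not tell the reads apart in any case.

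**Figure D3:**
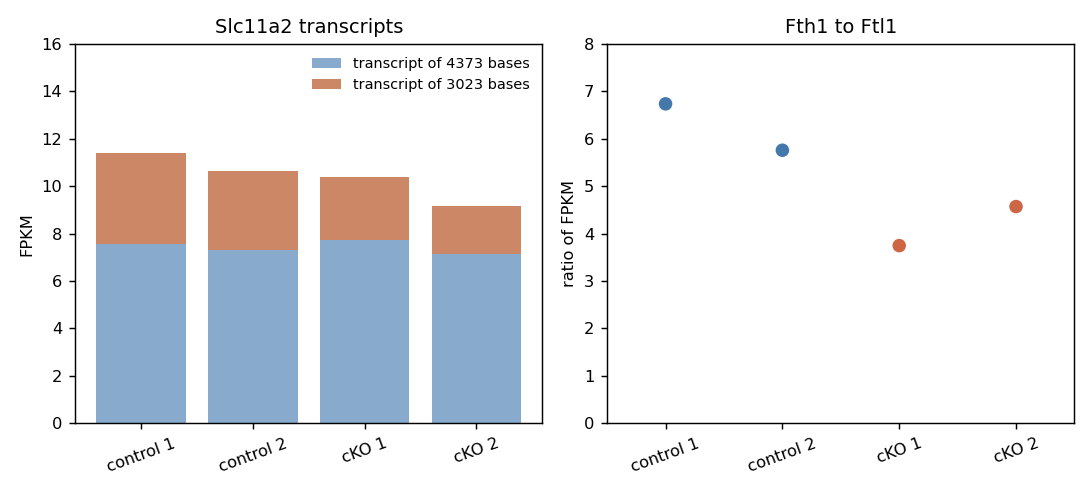
Left, FPKM of the 2 Slc11a2 transcripts stacked in each library, with the transcript of 3023 bases on top; it is at 3.84 and 3.35 FPKM in the controls against 2.66 and 2.02 in the cKO libraries, a difference that did not pass the test. Right, the ratio of Fth1 to Ftl1 FPKM in each library, at 6.74 and 5.76 in the controls and 3.75 and 4.57 in cKO 1 and cKO 2.

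Fth1, the ferritin chain with the ferroxidase site, was the most abundant of the 6 genes. It measured 1137 FPKM in control 1, 1507 in control 2, 1015 in cKO 1 and 944 in cKO 2. The cKO libraries lay below both controls, but control 1 was nearer to cKO 1 than to control 2. Means were 1322 ± 262 and 980 ± 49.8 FPKM (SD over 2 libraries a group). The log2 fold change was -0.42 ± 0.30 (SE) and missed the threshold (limma adjusted p = 0.425), with a 95% interval from -1.03 to 0.19. The gene lies on chromosome 19, 10057193 to 10059582 (mm9).

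Ftl1, the light chain that helps the iron core form, measured 169 FPKM in control 1, 262 in control 2, 271 in cKO 1 and 207 in cKO 2. The groups overlapped, and control 1 was the lowest library. The log2 fold change was 0.17 ± 0.23 (SE, limma adjusted p = 0.703), and it turned to -0.14 without control 1 and -0.02 without cKO 1. The gene lies on chromosome 7, 52713314 to 52715256 (mm9). Ftl2, a near-identical gene without introns, was at no more than 0.597 FPKM in any library. Ferritin genes are known for processed copies elsewhere in the genome, and the counting could split reads between them, so both ferritin levels are uncertain to that extent.

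The ratio of heavy to light chain mRNA was lower in the cKO libraries. Fth1 exceeded Ftl1 by 6.74-fold and 5.76-fold in the controls and by 3.75-fold and 4.57-fold in cKO 1 and cKO 2, without overlap. Mean ratios were 6.25 ± 0.692 and 4.16 ± 0.582 (SD, n = 2 each). The exact permutation p was 0.333, the smallest that this test gives for 2 against 2 libraries, and no other test of the ratio was run. Both chains summed to 1305 FPKM in control 1, 1769 in control 2, 1286 in cKO 1 and 1151 in cKO 2.

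Slc40a1, ferroportin, the exporter of cellular iron, was the least abundant of the 6 genes. It measured 5.74 FPKM in control 1, 5.01 in control 2, 4.54 in cKO 1 and 4.00 in cKO 2. The cKO libraries lay below both controls, and the gap between the groups was no larger than the spread within them. The log2 fold change was -0.27 ± 0.15 (SE) and missed the threshold (limma adjusted p = 0.268). The gene lies on chromosome 1, 45964915 to 45982439 (mm9), and its coverage was only 3.59 reads per base in control 2. Microglia are known to express ferroportin. The 13 microglia and macrophage markers summed to 135 FPKM in control 1, 140 in control 2, 128 in cKO 1 and 125 in cKO 2. None of them was at 0. Of the 11 tested, 3 were called lower and 1 higher, which is 36.4% against 10.7% of all genes tested. The part of these markers in the Slc40a1 level was not tested.

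Trf was set against each of the other members by the ratio of their FPKM within a library. The ratio was lower in both cKO libraries than in both controls against Tfrc, Ftl1, Slc11a2 and Slc40a1. Against Tfrc it was 10.4 and 12.4 in the controls and 5.05 and 9.94 in cKO 1 and cKO 2. Against Fth1 the groups overlapped, at 0.349 and 0.251 in the controls and 0.128 and 0.256 in the cKO libraries. The exact permutation p was 0.333 for each of the 4 ratios that did not overlap, the smallest possible, and 0.667 against Fth1. No test able to pass was run on these ratios, so whether Trf changed more than the other 5 genes was not tested.

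The genes whose profile was most like each of the other members were found by the same distance. For Tfrc they were 1810037I17Rik (0.084) and Gm14295 (0.097), for Fth1 Lmf1 (0.085) and Gstm7 (0.087), and for Ftl1 Sh3bgrl3 (0.042) and Uqcr11 (0.046). For Slc11a2 they were Ubap1 (0.015) and Cd34 (0.022), and for Slc40a1 2410002O22Rik (0.023) and Slco1c1 (0.044). Small distances are common for genes that vary little over the libraries.

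Other genes of iron metabolism were followed in 8 lists. Of 125 listed genes besides the 6 members, 102 were tested, 6 were called lower and 1 higher, which is 6.86% against 10.7% of all genes tested. Their median log2 fold change was -0.01.

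In the transferrin cycle, 9 genes were tested and Trf alone was called. Outside the members the smallest p was that of Trfr2, the second transferrin receptor, with 0.905 FPKM in control 1, 1.27 in control 2, 1.79 in cKO 1 and 1.43 in cKO 2 (log2 fold change 0.32, adjusted p = 0.209). Among 17 genes of iron transport across membranes, Cp fell. Ceruloplasmin, its product, is the ferroxidase that works with ferroportin. Cp measured 2.68 FPKM in control 1, 1.42 in control 2, 0.973 in cKO 1 and 0.822 in cKO 2 (log2 fold change -0.65 ± 0.17, limma adjusted p = 0.00898). Control 1 was high, and without it the log2 fold change was -0.35. Without cKO 2 the log2 fold change was -0.60. The 9 meningeal and fibroblast markers summed to 281 FPKM in control 1 and to 63.8, 39.5 and 41.9 FPKM in control 2, cKO 1 and cKO 2. Of the 9, 7 were called lower and none higher, which is 77.8% lower against 6.54% of all genes tested. Each of the 9 was highest in control 1, none was at 0, and Lum and Aldh1a2 overlapped between the groups. The part of these markers in the Cp level was not tested. None of 11 tested genes of storage and ferritin turnover was called, where Nbr1 had the smallest p, members included (log2 fold change -0.26, adjusted p = 0.327). None of 11 genes of iron sensing and hepcidin control was called either, with Bmp6 nearest (log2 fold change -0.32, adjusted p = 0.198) and a list median of -0.21.

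Among 12 genes of heme synthesis, Cpox and Alas2 fell and the list median was -0.06. Cpox, which converts coproporphyrinogen in mitochondria, measured 35.3 FPKM in control 1, 35.9 in control 2, 12.4 in cKO 1 and 21.8 in cKO 2 (log2 fold change -1.07 ± 0.18, limma adjusted p = 5.50e-05). Both cKO libraries lay below both controls, and without cKO 1 the log2 fold change was -0.69. Alas2, the first enzyme of the pathway in red cells, reached 4.27 FPKM in control 2, against 0.320 in control 1, 0.326 in cKO 1 and 0.456 in cKO 2 (log2 fold change -0.92 ± 0.28, adjusted p = 0.0250). The groups overlapped, so this call rests on control 2, without which Alas2 did not reach the filter. Control 2 was also the library with the highest summed red cell markers, given above with Tfrc. That list holds Alas2 itself, and not every gene on it was highest in control 2. Of its 5 genes tested, 3 were called lower and 1 higher, which is 80% against 10.7% of all genes tested. The 3 called lower, Alas2 among them, were each highest in control 2 and overlapped between the groups. The part of red cells in the Alas2 level was not tested. None of 8 genes of heme breakdown and none of 26 genes of iron-sulfur cluster assembly was called. The smallest p in these lists was that of Blvrb (log2 fold change 0.25, adjusted p = 0.376) and of Lyrm4 (log2 fold change 0.31, adjusted p = 0.213).

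Iron can drive lipid peroxidation, and 16 genes of ferroptosis and glutathione defence were tested, of which 3 fell and 1 rose. That is 25% called, against 10.7% of all genes tested. The list median was -0.01, and 9 of the 16 genes had a log2 fold change below 0. Slc7a11, the cystine transporter subunit, measured 3.21 FPKM in control 1, 1.91 in control 2, 0.942 in cKO 1 and 0.981 in cKO 2 (log2 fold change -0.84 ± 0.17, limma adjusted p = 6.05e-04). Nfe2l2, the regulator of antioxidant genes, measured 8.71 FPKM in control 1, 8.53 in control 2, 4.51 in cKO 1 and 6.25 in cKO 2 (log2 fold change -0.61 ± 0.16, adjusted p = 0.00770). Both genes were lower in cKO without overlap. Control 1, the library with the highest meningeal markers, was also highest for Slc7a11. Without control 1 the log2 fold change of Slc7a11 was -0.57. Gss, glutathione synthetase, measured 13.3 FPKM in control 1, 14.8 in control 2, 7.81 in cKO 1 and 10.2 in cKO 2 (log2 fold change -0.60 ± 0.16, adjusted p = 0.00859). Without cKO 1 the log2 fold change was -0.41 for Nfe2l2 and -0.42 for Gss. Hspb1, a small heat shock protein, rose. It measured 7.41 FPKM in control 1, 10.8 in control 2, 11.8 in cKO 1 and 18.7 in cKO 2 (log2 fold change 0.67 ± 0.18, limma adjusted p = 0.00849). Its log2 fold change was 0.43 without control 1 and 0.36 without cKO 2.

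The calls in the wider lists also depended on the setting. With no filter, with sums over all transcripts or with the most abundant transcript alone none of the 7 called genes passed. With the most abundant transcript alone, Cp did not reach the filter and was not tested. Under TPM or quantile scaling Cpox and Slc7a11 alone passed. Under median-of-ratios scaling Cp, Alas2 and Hspb1 did not pass. Alas2 also missed the threshold at pseudocounts of 0.1 (adjusted p = 0.0606) and 0.01 (adjusted p = 0.0791), with no mean-variance trend (adjusted p = 0.0567) and with limma's robust option (adjusted p = 0.698).

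**Figure D4:**
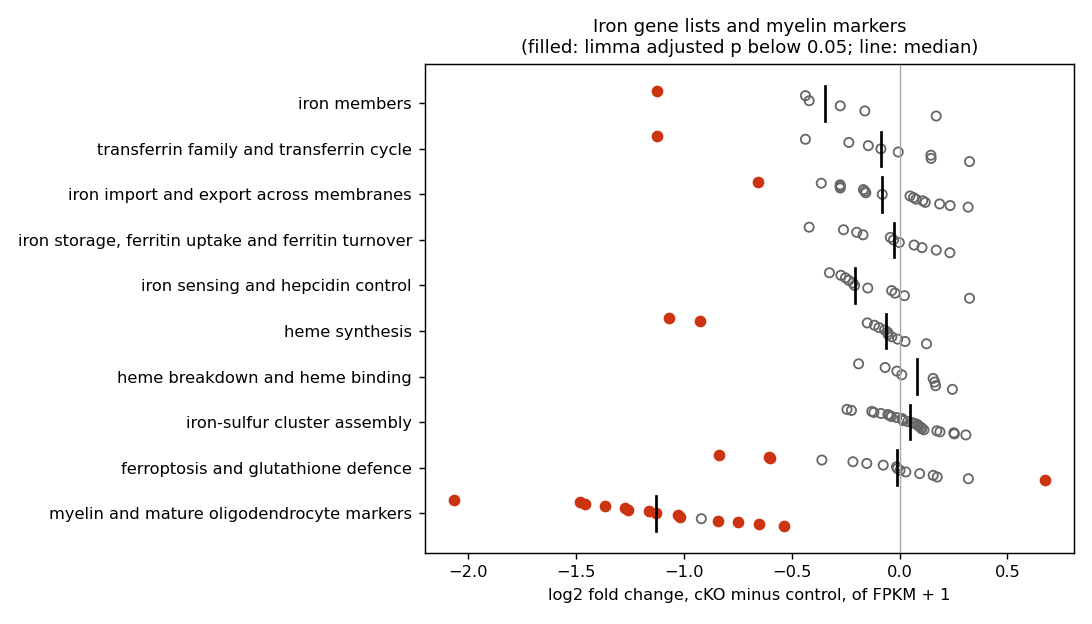
log2 fold change of FPKM + 1, cKO minus control (horizontal axis), of each tested gene in the iron lists and in the list of myelin markers (rows); filled points passed the limma test, open points did not, and vertical lines are list medians. Most iron genes lie near 0, with Trf at -1.12 and Cpox at -1.07 within the range of the myelin markers.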

How the data were processed

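Per the file headers, the authors deposited for each library a Cufflinks-type table of 28107 RefSeq transcripts with FPKM and coverage, the signal of read depth averaged over a transcript. The submitters' processing notes name mm9 and, with no versions, CASAVA, TopHat, Cufflinks and Cuffdiff. FPKM is no count and library totals are unknown here, so no count model was used. Transcripts were matched between tables by identifier, symbol, position and length. After 315 rows lacking an OK status somewhere were dropped, FPKM was added up per symbol over rows of at least 300 bases. Genes averaging at least 1 FPKM were tested as log2(FPKM + 1), which understates the change of low genes. The test was limma 3.58.1 in R 4.3.3 with genotype as the factor, empirical Bayes moderation and a trend of variance on mean, followed by Benjamini-Hochberg adjustment over all genes tested (threshold 0.05). Prior degrees of freedom were 36.3 and residual ones 2, so most of the error estimate is pooled over genes. The script was tested on simulated data. Groups were read from the sample titles. The members, lists and the summing rule were chosen with earlier results of these data known. Named were all members, in each list up to 4 called genes or else the gene with the smallest p, and nearest profiles (5 for Trf, 2 for each other member). Single marker genes were named after their values were seen. Starts were raised by 1 to count from 1. The level of 1 red cell marker is not reported here on its own.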

Additional observations from a re-analysis of the deposited data

How the results depend on the processing

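Each log2 fold change was recomputed under 16 alternatives, or 15 for Slc40a1 and Chd7, which missed the filter of 5 FPKM, and 14 to 16 for the named genes of the wider lists. Trf stayed below 0 in all 16. Among those that kept all 4 libraries, it passed in all but the settings named next. With no filter on low values, with sums over all transcripts and with the most abundant transcript alone, Trf kept -1.12 without passing, so that 0 members were called lower instead of 1. The tests of these settings hold more low or short features. Leaving out 1 library gave -1.57 to -0.68 for Trf, -0.59 to -0.28 for Tfrc, -0.14 to 0.49 for Ftl1 and -0.29 to 0.023 for Chd7. Ftl1 turned to -0.14 without control 1 and to -0.02 without cKO 1, and Chd7 to 0.023 without cKO 1. Fth1, Slc11a2 and Slc40a1 stayed below 0 and did not pass under any of these alternatives.

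Of the wider iron genes, 6 were lower and 1 higher. With no filter, with sums over all transcripts and with the most abundant transcript alone, 0 were lower and 0 higher. With a filter of 5 FPKM, 3 were lower. Under TPM scaling and quantile scaling 2 were lower, and under these and median-of-ratios scaling 0 were higher. Counts without 1 library are not given, since such a fit leaves a group of 1. Over all genes 1378 were called. The count was 1 with no filter, 53 with sums over all transcripts and 18 with the most abundant transcript alone. It was 600 after TPM scaling and 717 after quantile scaling. The cause of these changes was not tested.

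With the replicate number as a block, Trf kept -1.12 with an adjusted p of 0.00293, no call of a member changed and 996 genes were called. Deviations of same-numbered libraries correlated at -0.24 over genes. With the crossed pairing as a block, chosen after the data were seen, 2 members (Trf and Tfrc) and 2178 genes were called. The scalings moved the median of all genes by less than 0.1 on the log2 scale.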
